A study of Mus musculus with 15 samples.

Results

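Cerebella of newborn C57BL/6 mice that were labelled as carrying Math1-Cre, but in which the array row for Gsk3a stayed at control level, were compared with cerebella without Cre. A library entered the first set if its title read GSK-3DKO or MCreControl and its Gsk3a row was at 9.0 or above on the log2 scale. The libraries were thus selected on a measured value, and 5 of the 15 qualified, those labelled DKO 1, DKO 3, Math1-Cre 3, Math1-Cre 4 and Math1-Cre 5, which are called Gsk3a-high here. They were set against the 5 libraries labelled no-Cre. The other 5 Cre-labelled libraries, DKO 2, 4 and 5 and Math1-Cre 1 and 2, are called Gsk3a-low and entered no fit unless this is said.

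By its label, a DKO cerebellum has lost both Gsk-3 isoforms in cerebellar granule neuron progenitors (CGNPs). The Math1-Cre controls are labelled as lacking Gsk-3 beta alone, and their descriptions read Gska+- and GskBff. For the no-Cre controls, labelled Gsk-3 intact, the descriptions also give Gska+-, so by label both control groups carry an altered Gsk3a allele, and no-Cre 5 has no Gsk3b genotype in its description. Cre comes from a Math1 (Atoh1) driver, so cells outside that lineage would keep the Gsk3b that the descriptions give as ff. Gska+- is also given without Cre, so the same cannot be said of Gsk3a. The age is postnatal day 1 in one label and day 2 in another. Cells were enriched for CGNPs on a density gradient before RNA was taken. Each library is described as whole cerebella of 1 replicate and was read on 1 array. No litter is named, and what a code shared by the replicate-5 libraries, cg1724, stands for is not known here. The p-values thus measure only the spread between these samples, and the number of arrays limits their precision.

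Glycogen synthase kinase 3 marks beta-catenin for destruction inside a complex with Axin and Apc, and either isoform can do this. When the complex fails, beta-catenin enters the nucleus and, with LEF and TCF factors, switches on genes such as Axin2 and Lef1 that feed back on WNT signalling. CGNPs divide in the outer layer of the young cerebellum under Sonic hedgehog (SHH), express Atoh1, and leave the cell cycle to become granule neurons.

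The Gsk3a row chose the libraries, so its values are a description with no test. It stood at 9.47 in DKO 1, 9.37 in DKO 3, and 9.48, 9.50 and 9.51 in Math1-Cre 3, 4 and 5. In no-Cre 1 to 5 it stood at 9.42, 9.52, 9.59, 9.42 and 9.57. The library just inside the rule was DKO 3 at 9.37 and the one just outside was DKO 5 at 8.27. For DKO 1 and DKO 3 the row goes against the label, so they are named throughout as libraries labelled DKO, and no direction is drawn from a deletion. The row carries a further gene symbol and stands outside the genes tested. It had been looked up after Axin2 and Lef1 were seen to part the libraries in the same way, so the WNT values below are partly fixed by the choice of libraries.

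Gsk3b, the other isoform, lay at 10.77, 10.82, 10.76, 10.77 and 10.93 in the Gsk3a-high libraries, always listed in the order DKO 1, DKO 3, Math1-Cre 3, 4 and 5. In no-Cre 1 to 5 it lay at 10.84, 10.77, 10.80, 10.61 and 10.84, and the groups overlapped. The difference, Gsk3a-high minus no-Cre, was +0.03 ± 0.07 (SE), with a 95% interval from -0.12 to 0.19. Because an array row averages along a transcript, with or without the deleted part, Gsk3b gives no check of the Gsk-3 beta label.

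**Figure D1:**
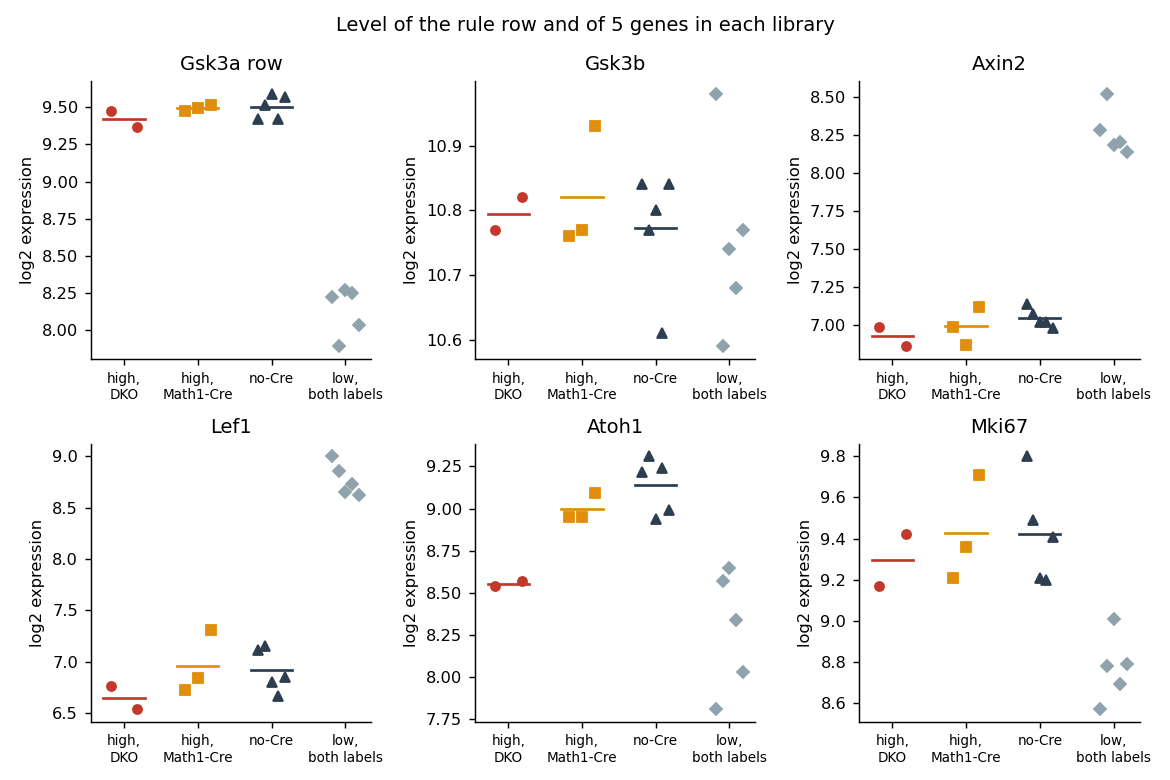
Log2 expression of the Gsk3a row and of Gsk3b, Axin2, Lef1, Atoh1 and Mki67, 1 point per library, for the Gsk3a-high libraries by label, the no-Cre libraries and the Gsk3a-low libraries, with lines at the mean of each of the first 3 columns. Axin2 lies between 6.86 and 7.14 in the 10 libraries compared, and Atoh1 is lowest among these in DKO 1 and DKO 3, at 8.54 and 8.57.

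No gene separated the Gsk3a-high libraries from the no-Cre libraries at the threshold used. Of 22180 genes, 0 (0.00%) passed an adjusted p of 0.05 in limma, and 653 (2.94%) had an unadjusted p under 0.05, 402 of them higher (1.81%) and 251 lower (1.13%). The lowest adjusted p in limma was 0.254, for the unnamed transcript Gm11517. Its level was 3.48, 3.11, 3.42, 2.98 and 3.43 in the Gsk3a-high libraries and 4.05, 4.58, 4.71, 4.09 and 4.71 in no-Cre 1 to 5. The groups did not overlap, at a difference of -1.14 ± 0.16 (SE), but in the Gsk3a-high libraries the level was below the median of 1428 olfactory, vomeronasal and taste receptor genes on every array (3.50 to 4.12), which serves here as the background.

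The intervals of the single genes were narrow, which limits what could have been missed for genes well above background. For 7615 of the 22180 genes the no-Cre mean was below 4.05, the highest receptor gene median among the no-Cre arrays. There a difference can understate the change, so a narrow interval limits less. The median gene differed by 0.07 in either direction, with an SE of 0.11, and 99.1% of genes had a 95% interval lying wholly between -1 and 1. For 84.8% of genes it lay between -0.5 and 0.5. The median SD between libraries was 0.17 among the Gsk3a-high and 0.16 among the no-Cre libraries. Groups did not overlap for 91 genes (0.410%), 56 higher (0.252%) and 35 lower (0.158%) in the Gsk3a-high libraries.

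**Figure D2:**
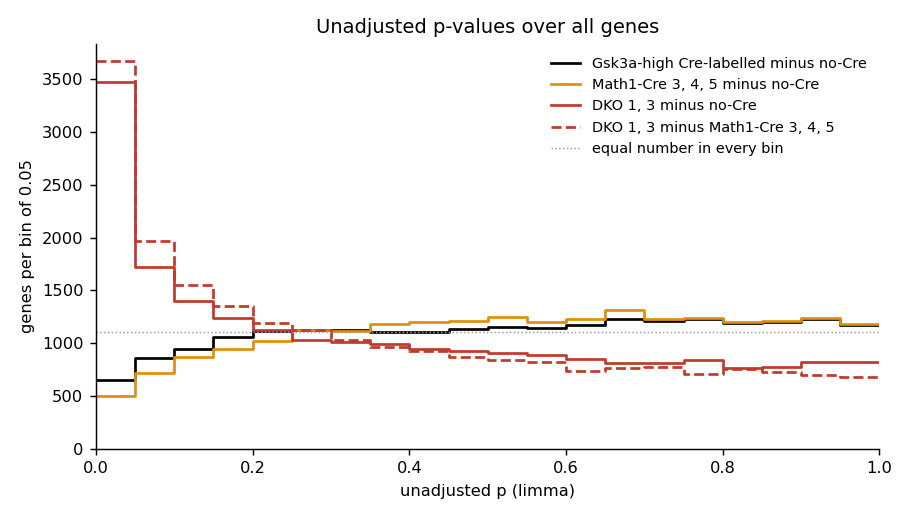
Number of genes (vertical axis) in each bin of unadjusted limma p-values (horizontal axis) for 4 comparisons of the same 10 libraries, with a dotted line at an equal number in every bin. The lowest bin holds 653 genes for all Gsk3a-high minus no-Cre and 504 for Math1-Cre 3, 4 and 5 minus no-Cre, against 3479 and 3676 for DKO 1 and 3 minus no-Cre and minus Math1-Cre 3, 4 and 5.

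Axin2, which encodes a scaffold of the destruction complex and is a direct WNT target, lay at 6.99, 6.86, 6.99, 6.87 and 7.12 in the Gsk3a-high libraries. No-Cre 1 to 5 lay at 7.14, 7.07, 7.02, 7.02 and 6.98. The ranges overlapped, and the difference was -0.08 ± 0.07, with an interval from -0.24 to 0.08. In the Gsk3a-low libraries it ran from 8.14 to 8.52, above all 10 libraries compared.

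Lef1, the partner of beta-catenin on DNA, lay at 6.76, 6.54, 6.73, 6.84 and 7.31 in the Gsk3a-high libraries and at 7.12, 7.15, 6.80, 6.67 and 6.85 in no-Cre 1 to 5. Math1-Cre 5 was the highest of the 10 and DKO 3 the lowest, so the groups overlapped. The difference was -0.08 ± 0.14, with an interval from -0.39 to 0.23. Gsk3a-low libraries were at 8.62 to 9.00.

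Of 18 measured WNT feedback and target genes, 0 were called, 12 differences lay below 0 and the median was -0.04, beside 0.01 over all genes. All 18 intervals lay between -1 and 1, and 15 of them between -0.5 and 0.5. For 4 of the 18, Notum, Dkk1, Dkk4 and Sp8, the no-Cre mean was below background, where a difference can understate the change. The highest upper bound was 0.51, for Lgr6, a receptor of R-spondins. Wif1, a secreted WNT inhibitor, was at 5.65 to 6.24 in the Gsk3a-high libraries, 5.48 to 6.28 in the no-Cre libraries and 9.36 to 9.81 in the Gsk3a-low libraries. Notum, whose enzyme inactivates WNT proteins, was at 3.09 to 3.61, 3.32 to 3.57 and 5.69 to 6.36 in the same order. For both genes the first 2 ranges overlapped and the third lay above them. Wif1 and Notum, like Sp5, Mfap4 and the single genes of the cell cycle and cell type lists below, were picked after their values were seen.

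**Figure D3:**
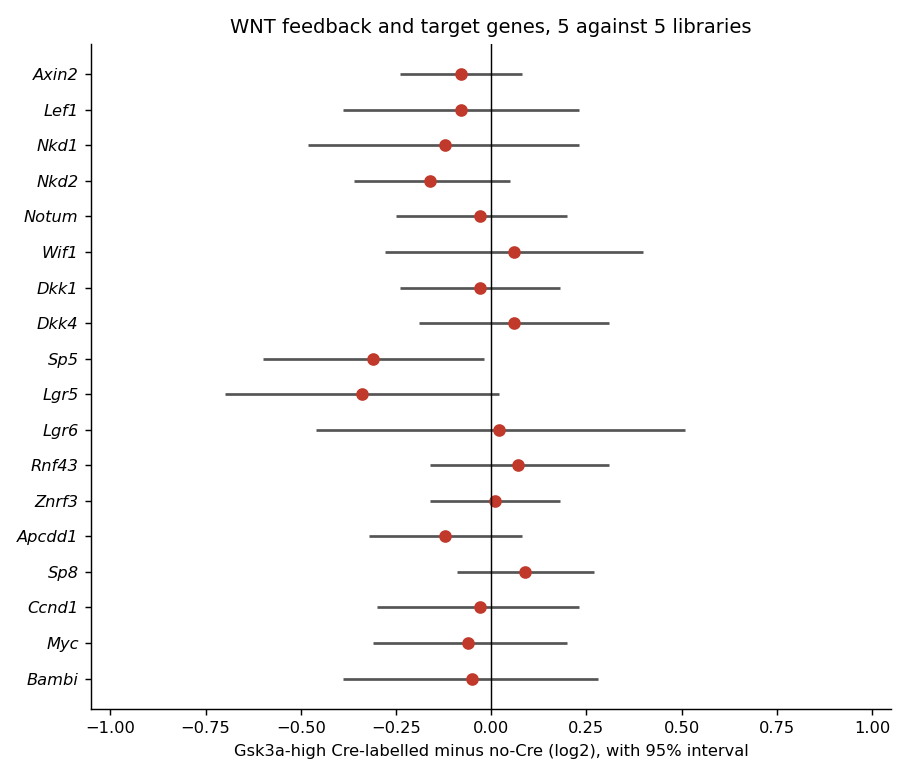
Difference between the 5 Gsk3a-high and the 5 no-Cre libraries (log2, horizontal axis) for 18 WNT feedback and target genes, as points with 95% intervals from limma. The Sp5 interval is the only one of the 18 that excludes 0, and no interval reaches 1 in either direction.

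Sp5, a zinc finger factor induced by WNT, was the member with an unadjusted p under 0.05. It lay at 6.71, 6.29, 6.42, 6.82 and 6.80 against 6.95, 7.13, 6.64, 7.11 and 6.78, so the groups overlapped. The difference was -0.31 ± 0.13, and limma gave an adjusted p of 1. Its direction was opposite to the Gsk3a-low libraries, which lay at 8.18 to 8.62.

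The start regions of Sp5 and of Atoh1 are printed because these were a WNT gene and a progenitor gene whose intervals lay below 0 and whose promoters in the RefSeq table (build GRCm38.p6) hold a LEF/TCF core. The letters searched were CTTTGAT and CTTTGAA on both strands, and 2842 of 32851 promoters of 300 bases (8.65%) hold at least 1. Of 19 WNT genes, 11 had an entry, with 18 promoters in all, and 3 promoters, of Dkk1, Sp5 and Sp8, hold a match. The capitals mark the match, at bases 147 to 153 for Sp5, chr2:70474673-70474972, plus strand, and 103 to 109 for Atoh1, chr6:64728875-64729174, plus strand.
Sp5: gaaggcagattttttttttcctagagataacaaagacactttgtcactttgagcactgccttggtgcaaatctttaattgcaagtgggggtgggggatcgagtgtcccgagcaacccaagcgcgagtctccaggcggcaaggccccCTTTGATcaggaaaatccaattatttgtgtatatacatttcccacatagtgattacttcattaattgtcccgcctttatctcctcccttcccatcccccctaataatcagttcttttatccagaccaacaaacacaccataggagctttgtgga
Atoh1: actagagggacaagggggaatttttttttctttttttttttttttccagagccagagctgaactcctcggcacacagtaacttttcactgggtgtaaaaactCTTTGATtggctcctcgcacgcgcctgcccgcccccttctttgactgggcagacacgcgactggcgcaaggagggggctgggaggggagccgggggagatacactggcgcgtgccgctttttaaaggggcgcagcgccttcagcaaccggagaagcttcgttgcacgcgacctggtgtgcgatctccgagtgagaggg
A match describes these letters and was not tested as a binding site. The build named for the array values is mm9, so the coordinates belong to the sequence table alone.

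The 12 genes of the destruction complex and its partners had a median difference of 0.00, with 0 called. Apc, the scaffold named for polyposis, was between 10.47 and 10.58 in all 10 libraries, with a difference of -0.02 ± 0.06 and an interval from -0.15 to 0.12. Of the 12 intervals, 11 lay between -0.5 and 0.5. These values pool the labels. For DKO 1 and 3 minus no-Cre, 0 were called, and 1 lower and 1 higher member had an unadjusted p under 0.05 in limma. These were Axin1 (-0.48 ± 0.10) and Dvl1 (+0.51 ± 0.14). For Math1-Cre 3, 4 and 5 minus no-Cre they differed by +0.08 ± 0.09 and -0.03 ± 0.12.

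Atoh1, the transcription factor of progenitors that also names the Cre driver, lay at 8.54, 8.57, 8.95, 8.95 and 9.09 in the Gsk3a-high libraries. No-Cre 1 to 5 lay at 9.22, 9.31, 8.94, 9.24 and 8.99. DKO 1 and DKO 3 were below every no-Cre library, and Math1-Cre 3, 4 and 5 were inside the no-Cre range. The difference over all 5 was -0.32 ± 0.12, with an interval from -0.59 to -0.05 and an adjusted p of 1 in limma (unadjusted p = 0.0252). Kept apart by label, Math1-Cre 3, 4 and 5 minus no-Cre was -0.14 ± 0.10, and DKO 1 and 3 minus no-Cre was -0.58 ± 0.12 with an adjusted p of 0.0523 in limma. The test between the labels gave -0.44 ± 0.13, with an interval from -0.72 to -0.16 and an adjusted p of 0.132 in limma. Atoh1 was thus not called between the labels, though their levels did not overlap, as for 8199 of 22180 genes.

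Among 11 measured progenitor markers the median difference was -0.07, with 0 called and 2 at an unadjusted p under 0.05, both lower, Atoh1 and Mfap4. Mfap4 differed by -0.25 ± 0.09. The mean level of the list was 9.41 to 9.57 in the Gsk3a-high and 9.39 to 9.74 in the no-Cre libraries.

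SHH signalling, the mitogenic drive of these cells, was read from Gli1, which encodes its effector and reports its activity. Gli1 lay at 6.63, 6.73, 6.59, 6.25 and 6.48 against 6.79, 6.42, 6.27, 6.15 and 6.63. The groups overlapped, with a difference of +0.08 ± 0.13 and an interval from -0.20 to 0.37. Ptch1, the SHH receptor and also a target, differed by -0.06 (interval -0.27 to 0.16), between 9.83 and 10.26 in the Gsk3a-high libraries and 9.88 and 10.23 in the others. Of 11 SHH and GLI genes, 0 were called, and the median was -0.06.

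Mycn, the MYC gene that SHH induces in progenitors, lay at 7.26, 7.17, 7.83, 7.56 and 7.49 against 7.81, 7.52, 7.39, 7.53 and 7.58. DKO 1 and DKO 3 were the lowest of the 10 libraries and Math1-Cre 3 the highest. The pooled difference was -0.10 ± 0.13, with an interval from -0.38 to 0.17. Kept apart by label, DKO 1 and 3 minus no-Cre was -0.35 ± 0.13 and Math1-Cre 3, 4 and 5 minus no-Cre was +0.06 ± 0.11, neither called. Ccnd1 and Ccnd2, the D cyclins that carry cells into S phase, differed by -0.03 (interval -0.30 to 0.23) and -0.01 (interval -0.30 to 0.27). All 9 genes of the MYC, D cyclin and CDK4/6 list had pooled intervals between -0.5 and 0.5, and their median was -0.02. For DKO 1 and 3 minus no-Cre, 6 of the 9 had such an interval.

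Mki67, carried by cycling cells, lay at 9.17, 9.42, 9.21, 9.36 and 9.71 against 9.80, 9.49, 9.21, 9.20 and 9.41. The ranges overlapped almost wholly, and the difference was -0.05 ± 0.13 (interval -0.34 to 0.24). Each of the 10 libraries lay above the Gsk3a-low range of 8.57 to 9.01.

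Mitosis genes leaned lower without a call. Of 22 measured, 21 differences lay below 0 with a median of -0.21, while 10442 of 22180 genes lay below 0. An unadjusted p under 0.05 was met by 4, all lower, beside 1.13% of all genes in that direction: Ccnb2, a mitotic cyclin (-0.29 ± 0.10), Cdc20, an activator of the anaphase complex (-0.22 ± 0.09), the checkpoint kinase Ttk (-0.29 ± 0.12) and the spindle protein gene Nusap1 (-0.36 ± 0.11). The list's mean level was 7.87 to 8.36 in the Gsk3a-high and 8.08 to 8.51 in the no-Cre libraries, so these overlapped. The median was -0.05 for Math1-Cre 3, 4 and 5 minus no-Cre and -0.39 for DKO 1 and 3 minus no-Cre. Those values share the no-Cre libraries. In bulk RNA, fewer cells of a type and less RNA per cell cannot be told apart.

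Replication genes, 21 measured, had a median of -0.14 with 19 below 0 and 0 called. For 11 replication-dependent histone genes the median was -0.17, again with 0 called. Among the 7 CDK inhibitors the median was -0.09. Cdkn1b, which encodes the inhibitor p27 that accompanies cell cycle exit, lay at 8.40, 8.42, 8.90, 8.82 and 9.18 against 9.02, 8.94, 8.71, 8.61 and 8.88. DKO 1 and DKO 3 were the lowest and Math1-Cre 5 the highest of these, and the pooled difference was -0.09 ± 0.15 (interval -0.41 to 0.24). By label, DKO 1 and 3 minus no-Cre was -0.42 ± 0.13 and Math1-Cre 3, 4 and 5 minus no-Cre was +0.14 ± 0.12, neither called.

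Neurod1, a transcription factor of cells turning into granule neurons, lay at 4.64, 4.50, 5.27, 5.18 and 5.22 against 5.73, 5.44, 5.13, 5.22 and 5.47. It was lowest in DKO 1 and DKO 3. The difference was -0.43 ± 0.17, with an interval from -0.81 to -0.06 and an adjusted p of 1 in limma. Rbfox3, which encodes the neuronal protein NeuN, lay at 9.48, 9.23, 9.27, 9.31 and 9.10 against 9.42, 9.15, 9.17, 9.20 and 9.17, and differed by +0.06 ± 0.09 (interval -0.14 to 0.25). The 15 genes of differentiating granule neurons had a median of -0.00 and 0 called.

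Stress, signalling and metabolic lists gave 0 calls each. Medians were -0.08 for 15 p53 targets, -0.08 for 12 interferon genes, -0.01 for 15 immediate early genes and 0.00 for 12 Notch genes. Glycogen metabolism, the pathway that gave the kinase its name, had a median of -0.10 over 11 genes. For 12 glycolysis genes it was 0.00, and for 11 NRF2 targets -0.13. Pmaip1, a p53 target whose protein promotes cell death and whose values were also seen first, was at 3.48 to 4.38 in the Gsk3a-high and 3.56 to 4.00 in the no-Cre libraries, but at 6.39 to 7.63 in the Gsk3a-low libraries.

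**Figure D4:**
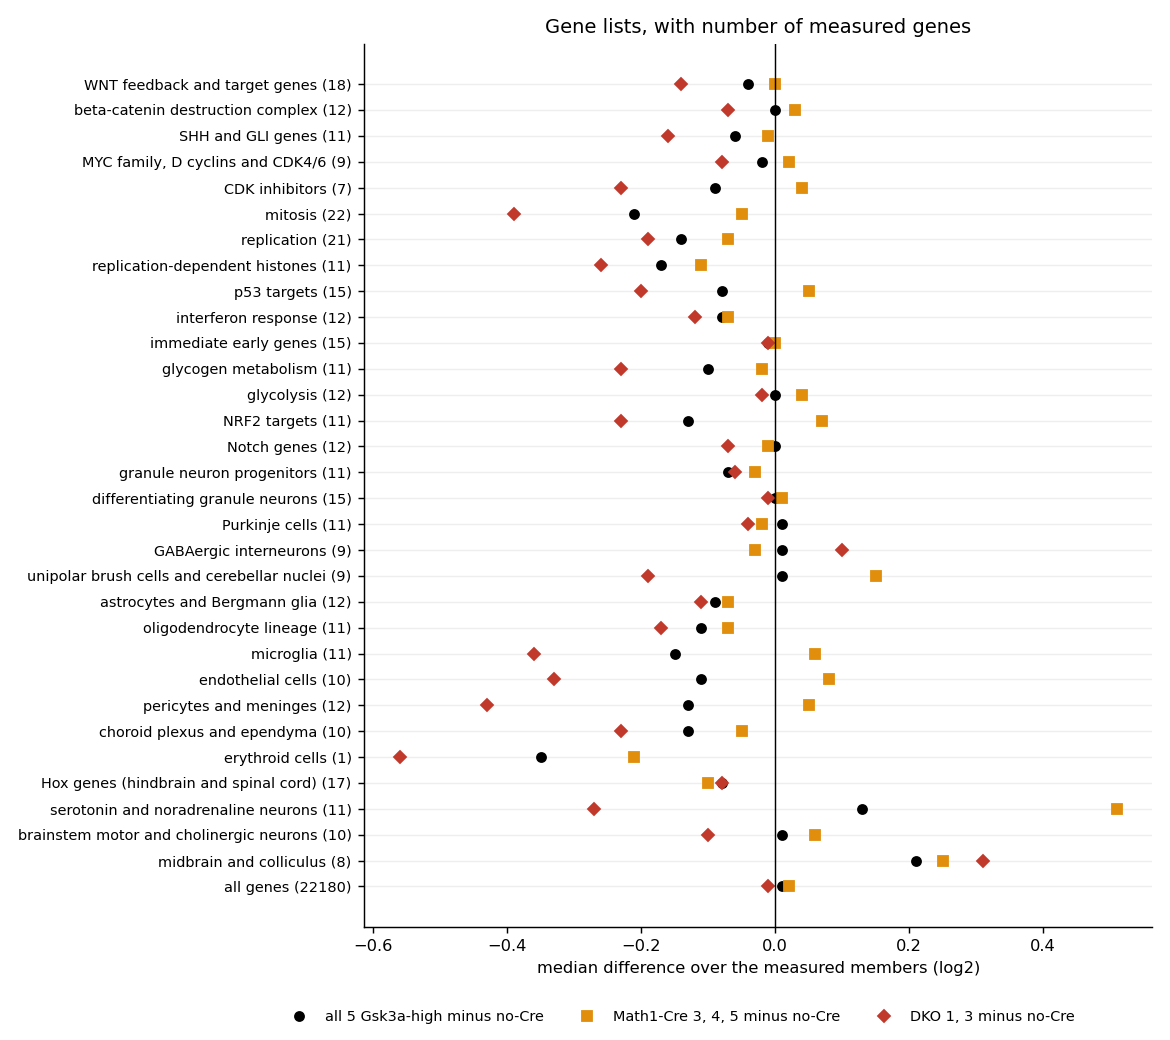
Median difference (log2, horizontal axis) over the measured members of each gene list and over all genes, for all 5 Gsk3a-high, Math1-Cre 3, 4 and 5, and DKO 1 and 3, each minus the same 5 no-Cre libraries. The WNT median is -0.04 for all 5, and the mitosis median moves from -0.05 for Math1-Cre 3, 4 and 5 to -0.39 for DKO 1 and 3.

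By the naming rule, 7 more genes had groups that did not overlap and a difference of at least 0.4, though none passed the adjusted test in limma. Higher were Zfhx4, Cxxc4, Shox2 and Nrgn. Zfhx4, a large homeodomain and zinc finger factor gene, lay at 9.61, 9.11, 8.75, 8.88 and 9.04 against 8.38, 8.53, 8.74, 8.47 and 8.37. DKO 1 stood highest and Math1-Cre 3 only just above no-Cre 3, for a difference of +0.58 ± 0.15. Cxxc4, whose product Idax binds Dishevelled and dampens WNT signalling, lay at 8.20, 8.15, 7.86, 7.67 and 8.02 against 7.63, 7.27, 7.66, 7.59 and 7.37, a difference of +0.48 ± 0.12. Shox2, a homeobox gene, differed by +0.72 ± 0.26 and Nrgn, a calmodulin-binding protein gene of neurons, by +0.68 ± 0.26. In both, DKO 1 stood far above the rest, at 7.72 for Shox2 and 7.70 for Nrgn.

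Lower were Samd3, Nod1 and Crym. Samd3 lay at 4.27, 4.23, 4.37, 4.00 and 4.25 against 4.85, 4.89, 4.50, 4.57 and 4.90, a difference of -0.52 ± 0.10, in a range not far above the background. It was about as low in Math1-Cre 3, 4 and 5 (-0.54 ± 0.12) as in DKO 1 and 3 (-0.50 ± 0.14). Nod1, a sensor of bacterial wall fragments, differed by -0.46 ± 0.13. Crym, a thyroid hormone binding protein gene, differed by -0.44 ± 0.12, from 5.33, 5.16, 5.39, 5.69 and 5.80 against 5.98, 5.95, 5.81, 5.95 and 5.89.

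Markers of other cells the dissection could hold gave 0 calls in this comparison. Medians were 0.01 for 11 Purkinje cell genes, 0.01 for 9 of GABAergic interneurons, 0.01 for 9 of unipolar brush cells and nuclei, -0.09 for 12 of astrocytes and Bergmann glia, and -0.11 for 11 of the oligodendrocyte lineage. They were -0.15 for 11 microglial, -0.11 for 10 endothelial, -0.13 for 12 pericyte and meningeal and -0.13 for 10 choroid plexus genes. Erythroid cells could be read from 1 of 8 genes only. Hox genes, which mark hindbrain and spinal cord, had a median of -0.08 over 17. In 16 of them the no-Cre mean was below 4.05, the background of no-Cre 4 and the highest among the no-Cre arrays. The 10 motor and cholinergic genes of the brainstem had a median of 0.01.

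Midbrain genes were the list with the largest positive median, 0.21 over 8 measured. An unadjusted p under 0.05 was met by 3 of the 8, all higher, beside 1.81% of all genes. These were En1, which patterns midbrain and cerebellum (+0.31 ± 0.11), Sox14 (+0.48 ± 0.15) and Pou4f1 (+0.56 ± 0.23). Tfap2d, a factor of the colliculi, ran from 6.04 to 10.11 in the Gsk3a-high and from 5.69 to 8.90 in the no-Cre libraries, and its interval was -0.34 to 3.13. The list's mean level was 7.48 to 8.01 against 7.13 to 7.65, so these overlapped, and its part in the higher values of Zfhx4, Shox2 and Nrgn was not tested. Serotonin and noradrenaline neuron genes varied even more, with a mean level of 4.36 to 6.66 in the Gsk3a-high and 4.50 to 6.69 in the no-Cre libraries. Only 4 of their 11 intervals lay between -1 and 1, so differences of that size were not detectable for most of this list.

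Array-wide values overlapped between the groups. The interquartile range of each array was 4.27 ± 0.13 (SD, n = 5) in the Gsk3a-high and 4.30 ± 0.17 (SD, n = 5) in the no-Cre libraries (two-sided exact permutation p = 0.698, smallest possible 0.00794). One narrow array stood in each group, DKO 3 at 4.06 and no-Cre 4 at 4.00, and both had the highest receptor gene medians, at 4.12 and 4.05. By label there was no such balance, as DKO 1 was at 4.24 and Math1-Cre 3, 4 and 5 were at 4.34 to 4.36. The receptor gene medians of DKO 1 and DKO 3, 3.68 and 4.12, lay above the 3.55 to 3.58 of Math1-Cre 3, 4 and 5. Array spread thus went with the label in the test between these libraries. Xist, which is transcribed in female cells, was between 11.67 and 12.13 in 7 of the 10 libraries. In DKO 3, no-Cre 1 and no-Cre 5 it was between 3.99 and 4.84, and there the Y-linked Kdm5d was at 7.98 to 8.15. Thus 1 of 5 Gsk3a-high and 2 of 5 no-Cre libraries carried Y-linked signal, and with the Xist level in the model 0 genes were still called in limma (838 at an unadjusted p under 0.05).

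Kept apart by label, Math1-Cre 3, 4 and 5 also had 0 genes called against no-Cre (0.00%), with 504 (2.27%) at an unadjusted p under 0.05 in limma, 375 higher (1.69%) and 129 lower (0.582%). These libraries are labelled as lacking Gsk-3 beta in progenitors. Their WNT list had a median of -0.00, with all 18 intervals between -1 and 1, 4 of them for genes below background. Axin2 differed by -0.05 ± 0.08 (interval -0.24 to 0.13). Lef1 differed by +0.04 ± 0.15 (interval -0.29 to 0.38) and Mki67 by +0.00 ± 0.16 (interval -0.34 to 0.35). The median SD between these 3 libraries was 0.12. The lowest unadjusted p was again that of Gm11517, at 7.72e-05.

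DKO 1 and DKO 3, which by their label should lack both isoforms, differed more. Against no-Cre, 153 genes (0.690%) were called in limma, 63 higher (0.284%) and 90 lower (0.406%), and 3479 (15.7%) had an unadjusted p under 0.05, 1368 higher (6.17%) and 2111 lower (9.52%). None of the 18 genes of the WNT list was among the calls, though Sfrp1, a WNT antagonist gene counted in the SHH list, was. Axin2 differed by -0.12 ± 0.10 (interval -0.33 to 0.09) and Lef1 by -0.26 ± 0.18 (interval -0.65 to 0.12). Quantile normalization gave 174 higher against 149 lower. Centring each array on its median gave 168 against 92.

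Called genes of the SHH list were both lower. Sfrp1, a secreted WNT antagonist, lay at 7.45 in DKO 1 and 6.82 in DKO 3, against 8.13, 8.36, 8.44, 8.15 and 8.17 in no-Cre 1 to 5. Both libraries lay below the no-Cre range, for a difference of -1.11 ± 0.18, 2.16-fold lower (adjusted p = 0.0320 in limma). Gas1, an SHH co-receptor gene, lay at 6.08 and 5.56 against 6.74 to 6.96, 2.00-fold lower, with an SE of 0.19 on the log2 scale (adjusted p = 0.0469 in limma). The other 9 of the 11 SHH genes were not called.

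In the mitosis list 3 of 22 were called, all lower, and 14 had an unadjusted p under 0.05, all lower, beside 9.52% of all genes in that direction. Fam83d, which positions the spindle, lay at 5.73 and 6.07 against 6.93, 7.03, 6.92, 6.74 and 7.04 in no-Cre 1 to 5. Neither library reached the no-Cre range, and the difference was -1.03 ± 0.13, 2.04-fold lower (adjusted p = 0.00937 in limma). The mitotic kinase gene Aurka fell by 0.89 ± 0.15 (adjusted p = 0.0347 in limma), and the cytokinesis motor gene Kif20a by 0.77 ± 0.14 (adjusted p = 0.0469 in limma). Mki67 itself was at 9.17 in DKO 1, just below the no-Cre range of 9.20 to 9.80, and at 9.42 in DKO 3, inside it.

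Further list members called were Neurod1 (-0.83 ± 0.15, adjusted p = 0.0382 in limma), the histone gene H2bc9 (-1.39 ± 0.27, adjusted p = 0.0482), which at 3.88 in DKO 3 was below that array's background of 4.12 and at 3.95 in DKO 1 was near it, so its difference can understate the change, and the choroid plexus channel gene Clic6 (-0.98 ± 0.19, adjusted p = 0.0485). Npy, a neuropeptide gene, rose to 9.08 in DKO 1 and 8.32 in DKO 3, against 6.80, 6.71, 7.07, 7.20 and 6.82 in no-Cre 1 to 5. This was 3.44-fold higher (+1.78 ± 0.27, adjusted p = 0.0206 in limma). Zfhx4 (+0.86 ± 0.15) and Crym (-0.67 ± 0.12) were called too, each with an adjusted p of 0.0381 in limma.

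The direct test between DKO 1 and 3 and Math1-Cre 3, 4 and 5, all Gsk3a-high, called 64 genes (0.289%), 28 higher (0.126%) and 36 lower (0.162%) in the libraries labelled DKO. An unadjusted p under 0.05 was met by 3676 genes (16.6%), 1198 higher (5.40%) and 2478 lower (11.2%). With quantile normalization, 99 were higher against 58 lower, and with centring 72 against 26. Of the 28 higher genes, 21 bore the symbol of an unnamed transcript, a microRNA or a receptor gene, while 2 of the 36 lower bore that of an unnamed transcript or a small nucleolar RNA. The share of such symbols over all 22180 genes was not counted, so these counts only describe the calls. None of the 18 genes of the WNT list was called, with a median of -0.18, beside -0.04 over all genes. WNT regulators outside that list were not counted here.

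Osmr, the receptor gene for oncostatin M, lay at 5.61 in DKO 1 and 5.38 in DKO 3, against 6.70, 6.54 and 7.17 for Math1-Cre 3, 4 and 5. No-Cre libraries were at 6.54 to 6.84, beside the latter. The difference between labels was -1.30 ± 0.18, 2.47-fold lower (adjusted p = 0.0198 in limma). Neurod4, a neuronal differentiation factor gene, lay at 5.00 and 4.44 against 5.94, 5.97 and 6.59 (-1.45 ± 0.25, adjusted p = 0.0485 in limma). Npas2, a clock transcription factor gene, lay at 4.74 and 4.56 against 5.87, 5.74 and 6.41 (-1.36 ± 0.22, adjusted p = 0.0351 in limma).

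With unnamed, noncoding and receptor genes passed over, 4 of which differed by more, the largest difference was that of Btbd35f1, at 7.09 in DKO 1 and 7.11 in DKO 3, against 5.28, 5.48 and 4.84 for Math1-Cre 3, 4 and 5 (+1.91 ± 0.28, adjusted p = 0.0284 in limma). Speer4d lay at 7.32 and 7.05 against 5.71, 5.88 and 5.88 (+1.37 ± 0.21, adjusted p = 0.0310 in limma). Both belong to families of near-identical copies, so which copy was measured is uncertain. Gas1 (-1.20 ± 0.20, adjusted p = 0.0442) and Fam83d (-0.95 ± 0.15, adjusted p = 0.0310) passed limma in this test as well as against no-Cre, with DKO 1 and 3 in both.

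**Figure D5:**
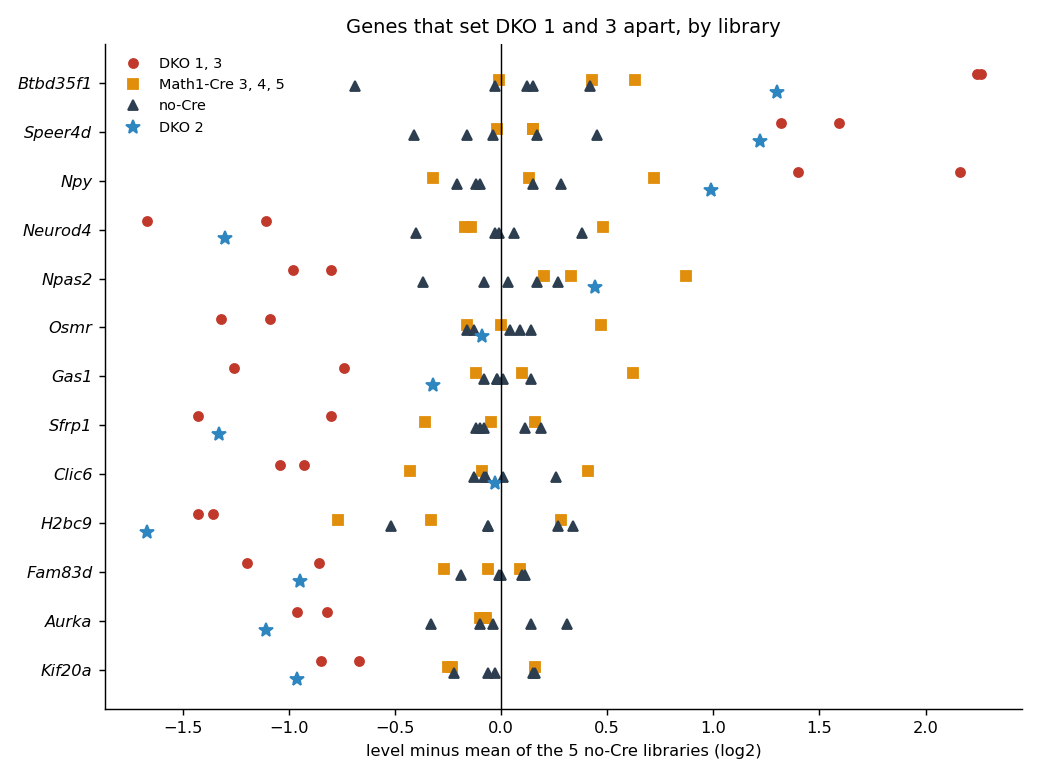
Level of 13 called genes in each library minus the mean of the 5 no-Cre libraries (log2, horizontal axis), for DKO 1 and 3, Math1-Cre 3, 4 and 5, no-Cre, and the Gsk3a-low library DKO 2, which was in no fit. DKO 1 and 3 stand apart from the other 8 fitted libraries in each of the 13 genes, which were chosen from the calls. The place of DKO 2 varies by gene. It lies between them and the rest for Btbd35f1, at 6.15, and among the rest for Osmr, at 6.61. For Fam83d, at 5.98, it lies between DKO 1 and DKO 3, and for Aurka, at 6.40, below both.

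The 5 Gsk3a-low libraries were in neither fit, so their values for these 64 genes are independent of the calls. A library was counted on the DKO 1 and 3 side when it lay beyond the midpoint between the means of the 2 label groups. DKO 2 was on that side for 41 of 64 genes, DKO 4 for 11, DKO 5 for 14, Math1-Cre 1 for 7 and Math1-Cre 2 for 2. No-Cre libraries were there for 0 to 4. For Speer4d, DKO 2 lay at 6.95 and the other 4 Gsk3a-low libraries at 5.39 to 6.20. For Osmr the Gsk3a-low libraries, at 6.53 to 7.00, overlapped the no-Cre range of 6.54 to 6.84. For Fam83d all 5 lay at 5.98 to 6.46, below the no-Cre range of 6.74 to 7.04, as DKO 1 and 3 did. The same held outside the 64 genes for Atoh1 (7.81 to 8.65 against 8.94 to 9.31) and the mean level of the mitosis list (7.45 to 7.90 against 8.08 to 8.51).

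Medians of several marker lists were below 0 in the test between the labels, in which 12580 of 22180 genes lay below 0 and 0 genes of these lists were called. All 12 pericyte and meningeal genes lay below 0 (median -0.47), at a mean level of 7.25 in DKO 1 and 6.94 in DKO 3, against 7.19, 7.41 and 8.11 in Math1-Cre 3, 4 and 5 and 7.31 to 7.73 in the no-Cre libraries. Math1-Cre 5 was the highest of the 10, and Math1-Cre 3 was below DKO 1. The 10 endothelial genes all lay below 0 too (median -0.39), at 7.23 and 6.90 against 7.38, 7.45 and 7.88, with 7.16 to 7.73 in the no-Cre libraries. None of these 22 genes was below background.

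For serotonin and noradrenaline neurons all 11 differences between the labels lay below 0, with a median of -0.83. Against no-Cre the median was -0.27 for DKO 1 and 3, with 9 of 11 below 0, and +0.51 for Math1-Cre 3, 4 and 5, with all 11 above 0. The list's mean level was 5.31 in DKO 1 and 4.58 in DKO 3, and 6.66, 6.40 and 4.36 in Math1-Cre 3, 4 and 5, so Math1-Cre 5 was the lowest of the 10. The part of these cells in the 64 calls was not tested.

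The counts for DKO 1 and 3, against no-Cre and against Math1-Cre 3, 4 and 5, changed with single libraries. Leaving out DKO 3 or DKO 1 leaves 1 library in that arm, which is then assumed to vary like the other groups. Without DKO 3, which has a narrow array and Y-linked signal, the 153 calls became 5 and the 64 became 2. All 13 named calls in the plot of levels by library were lost, but each kept its direction in DKO 1 alone, for example Fam83d at -1.20 and Npy at +2.17, so the lost calls do not show that the differences rested on DKO 3. Without DKO 1 the counts were 263 and 298, and without no-Cre 4, the other narrow array, 1102 and 619. Leaving out Math1-Cre 3, 4 or 5 gave 71, 47 or 228 and 14, 11 or 18, and leaving out no-Cre 1, 2, 3 or 5 gave 42, 44, 43 or 45 and 35, 27, 22 or 25. With array spread in the model 138 and 17 genes were called. Without both narrow arrays, which also drops DKO 3, 6 and 3 genes were called, and with the Xist level in the model 56 and 3.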

How the data were processed

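RNA of 15 libraries was hybridised to whole-transcript Affymetrix arrays. The deposited values are log2 expression, made by the authors with RMA and Partek 6.6 on build mm9, per the submitters' processing notes. Settings: not given in the sources used here. They ran from 2.11 to 13.49 and were used as deposited. Of 41345 rows, 23521 carried 1 gene symbol, and 23328 matched the reference table by gene ID. The row with the highest mean stood for each of the 1082 genes with several rows, which left 22180 genes.

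Two-sided limma tests (lmFit, eBayes, no covariates) were run over 10 libraries: 2 groups with 8 residual degrees of freedom, then 3 label groups with 7. P-values were adjusted by Benjamini-Hochberg over all genes at 0.05. Array values were compared by exact permutation. The 31 gene lists are described by counts and medians. The comparisons against no-Cre share those 5 libraries.

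The libraries, genes and lists were chosen with earlier results of these data known. Named were 13 genes and the Gsk3a row always, non-overlapping genes with a difference of at least 0.4 (up to 12 each way), up to 4 called members per list, and the 5 largest called differences between the labels, passing over unnamed, noncoding and receptor genes. Other settings were quantile normalization, median centring, a filter at the 30th percentile of level, trend and robust moderation, array weights, all 15 libraries, blocks for the replicate number and for cg1724, array spread or Hox mean as a covariate, without the narrowest arrays, mean rows, all 5 Math1-Cre labels, and each library left out. The Xist covariate, a fit of Math1-Cre 3, 4 and 5 and no-Cre alone, and array spread over all rows were chosen after seeing the data. The code was tested on simulated data. Fits ran in R 4.3.3 with limma 3.58.1, and figures in Python 3.11.15 with matplotlib 3.10.9.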

Additional observations from a re-analysis of the deposited data

Results flagged for a closer look

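In 72 groups of 5 libraries, 4 had 1 library whose gap to its neighbour was large for the group's range; chance gives about 1 in 20 such groups. These were the Gsk3a row in DKO 3, at 9.37 beside 9.47 to 9.51 in the other Gsk3a-high libraries, and the array interquartile range of no-Cre 4, at 4.00 beside 4.33 to 4.40. The other two were Rbfox3 in no-Cre 1, at 9.42 beside 9.15 to 9.20, and Nrgn in DKO 1, at 7.70 beside 6.17 to 6.48.

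A test between DKO 1 and 3 and Math1-Cre 3, 4 and 5 called 64 genes. The named ones were Gas1 (-1.20), Fam83d (-0.95), Btbd35f1 (1.91), Neurod4 (-1.45), Speer4d (1.37), Npas2 (-1.36) and Osmr (-1.30), as log2 differences. The levels of DKO 1 and 3 lay on one side of all 3 Math1-Cre libraries in each. That held for 8199 of all 22180 genes, and the named ones were chosen from the calls, so it adds no support.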

How the results depend on the processing

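The count of 0 for Gsk3a-high minus no-Cre stayed 0 in every setting run except array weights, where 1 gene, Gm11517, was called. Leaving out each library gave 0 to 0. Over all settings, 306 to 1411 genes had an unadjusted p under 0.05 in limma. Math1-Cre 3, 4 and 5 minus no-Cre gave 0 throughout (322 to 1409 at an unadjusted p under 0.05). For DKO 1 and 3 minus no-Cre (153) and minus Math1-Cre 3, 4 and 5 (64), the counts were 323 and 157 after quantile normalization, 260 and 98 after centring, 317 and 171 with trend and robust moderation, and 245 and 174 with all 15 libraries. They were 42 and 20 with cg1724 as a block, 35 and 24 with the Hox mean as a covariate, 6 and 3 without the narrowest arrays, 56 and 3 with the Xist level, and 138 and 17 with array spread. Leaving out each library gave 5 to 1102 and 2 to 619. The cause of these moves was not tested. With the replicate number as a block the counts were 0, 0, 6 and 1 for the 4 comparisons. For each library the deviations from its group mean were correlated across the 2 groups. Same-numbered libraries gave -0.41 to 0.35 and differently numbered ones -0.36 to 0.54, so the numbers were not taken to pair the samples. Of 500 values of the 20 named genes in Gsk3a-high minus no-Cre, 0 crossed the threshold and 34, in 10 genes, changed sign. Of 299 values of the 13 named calls for DKO 1 and 3, 154 lost the call and 0 changed direction; Fam83d lost it in 2 of 23 settings.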

Other observations

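Over the whole series, Math1-Cre 1, a Gsk3a-low library outside every comparison here, was the one library with both Xist (11.96) and the Y-linked genes Kdm5d (8.46), Eif2s3y (9.03) and Uty (8.67) at high level. DKO 2, also Gsk3a-low, had Xist at 5.31 and Kdm5d at 8.05. These values were looked at after the data were seen.

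Gabra6, whose GABA receptor subunit appears late in granule neurons, was at 3.51 to 3.86 in the Gsk3a-high libraries and 3.50 to 3.95 in the no-Cre libraries, at background, with a difference of -0.02 ± 0.10. In the Gsk3a-low libraries it was at 4.76 to 6.02.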
